A study of Mus musculus with 2 samples.

Results

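Genes of proteoglycans and of the hyaluronan matrix were followed through 8 sorted cell pools of the mouse embryo. They were the 7 genes Lum, Dcn, Vcan, Hapln1, Gpc3, Gpc6 and Hspg2, taken by name from the 18323 gene rows found in both deposited count tables, and all 7 had counts. The embryos were C57Bl/6 wildtype at embryonic day 9.5 (E9.5) or E11.5. Cells came from the aorta-gonad-mesonephros region (AGM), the part of the trunk around the dorsal aorta, or from the yolk sac (YS), the extra-embryonic membrane. Live cells, unstained by the dye 7AAD, were sorted with an antibody to VE-cadherin, the adhesion protein of endothelial cells, into a positive and a negative gate, and single cells were read in wells of ICELL8 chips. There was 1 chip for each stage, so stage and chip cannot be told apart. Each pool of stage, tissue and gate is 1 sample with no replicate. No test across samples was possible, no p-value is given, and all intervals are 95% intervals that cover counting error only.

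Proteoglycans are proteins that carry long sulphated sugar chains. Lumican (Lum) and decorin (Dcn) are small leucine-rich proteoglycans that bind collagen fibrils. Versican (Vcan) is a large chondroitin sulphate proteoglycan that binds hyaluronan, an unsulphated sugar polymer of loose embryonic matrix, and the link protein encoded by Hapln1 holds the pair together. Glypicans, here Gpc3 and Gpc6, are heparan sulphate proteoglycans anchored in the cell membrane by a lipid, where they bind growth factors. Perlecan (Hspg2) is a heparan sulphate proteoglycan of basement membranes, among them those under blood vessels.

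In the genome (GRCm38, GENCODE vM21) Dcn and Lum lie beside each other on chromosome 10 (97479609 to 97518143 and 97565128 to 97572703, both on the plus strand), 47.0 kb apart with 0 protein-coding genes between them. Hapln1 (chromosome 13, 89539796 to 89611652, plus strand) and Vcan (chromosome 13, 89655312 to 89742509, minus strand) are also neighbours, 43.7 kb apart, and are read towards each other. Gpc3 spans chromosome X from 52272426 to 52613950 on the minus strand and lies 107 kb from Gpc4. Gpc6, 1051 kb long, spans chromosome 14 from 116925315 to 117976544 on the plus strand and lies 400 kb from Gpc5. Hspg2 lies on chromosome 4 from 137468769 to 137570630 on the plus strand.

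RefSeq promoter windows (GRCm38.p6) were matched for 4 of the 7 genes. Those shown are of Vcan and Gpc3, whose levels moved together over the pools, and of Hspg2, which was higher in the opposite gate; the window of Hapln1 lies inside an annotated exon and is not printed. Each run is 5′ to 3′ on the gene's strand and holds bases upstream of the start site that lie in no annotated exon. Capitals mark the GC box letters GGGCGG or their reverse complement CCGCCC.
Vcan, chr13:89742513-89742762, minus strand: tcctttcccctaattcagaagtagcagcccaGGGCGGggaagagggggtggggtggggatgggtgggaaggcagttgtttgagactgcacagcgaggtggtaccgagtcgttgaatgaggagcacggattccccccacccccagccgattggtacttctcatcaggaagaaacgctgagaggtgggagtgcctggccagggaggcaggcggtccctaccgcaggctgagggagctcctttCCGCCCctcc
Gpc3, chrX:52613975-52614224, minus strand: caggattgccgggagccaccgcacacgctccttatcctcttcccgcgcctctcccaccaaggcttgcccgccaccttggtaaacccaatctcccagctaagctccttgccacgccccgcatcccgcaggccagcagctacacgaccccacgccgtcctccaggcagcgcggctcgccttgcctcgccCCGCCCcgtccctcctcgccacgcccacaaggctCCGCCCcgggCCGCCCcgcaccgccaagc
Hspg2, chr4:137468553-137468768, plus strand: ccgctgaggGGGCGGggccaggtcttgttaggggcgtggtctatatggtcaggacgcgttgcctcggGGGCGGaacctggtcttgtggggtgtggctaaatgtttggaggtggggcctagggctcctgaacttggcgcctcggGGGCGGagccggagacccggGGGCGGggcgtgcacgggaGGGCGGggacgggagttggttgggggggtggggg
The GC box was found 2 times in the Vcan stretch of 250 bases, 3 times in the Gpc3 stretch of 250 bases and 5 times in the Hspg2 stretch of 216 bases, counting both strands. At least 1 match is held by 32.7% of all 32851 windows over 250 bases and by 27.9% over 216 bases. The TATA box letters TATAAA, or TTTATA on the other strand, were found 0 times in the 3 stretches, against 12.4% of all windows over 250 bases. GC content was 62.4% for Vcan, 71.6% for Gpc3 and 70.8% for Hspg2, with a median of 52.4% over all windows. So the stretches of the negative-gate genes Vcan and Gpc3 and of the positive-gate gene Hspg2 all hold GC boxes and lack these TATA letters.

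The 8 pools held 2644 wells with at least 500 detected genes, of 2766 before that filter, and 827941 to 3839698 counts each. In the order AGM positive, AGM negative, YS positive, YS negative E9.5 had 299, 354, 325 and 305 wells, while E11.5 had 287, 338, 357 and 379. Median counts per well ranged from 2532 in E11.5 AGM positive to 12452 in E9.5 YS negative. The chips share 473 well barcodes. The summed level of 12 endothelial markers was 1382 to 2363 CPM (counts per 1e6 counts of the pool) in the positive pools and 43.0 to 105 CPM in the negative pools. In contrast, 11 mesenchymal markers summed to 505 to 8243 CPM in the negative pools and 61.8 to 757 CPM in the positive pools. At least 3 endothelial markers had a count in 95.0% and 89.2% of wells of the E9.5 AGM and YS positive pools, but in 49.1% and 39.5% at E11.5. These shares were not thinned, and median counts per well in these pools were 5832 and 3961 at E9.5 but 2532 and 3008 at E11.5. Their summed endothelial levels were 2019 and 2363 CPM at E9.5 and 1887 and 1382 CPM at E11.5. The part of depth in the shares was not tested. The E11.5 YS positive pool also had at least 3 visceral endoderm markers in 99.2% of its wells, against 0.615% in E9.5 YS positive.

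Counts in wells without a cell bear on every low value below. Whether they came from RNA outside cells or from reads given to the wrong well was not tested. Each chip carried wells with no cell, 48 at E9.5 and 47 at E11.5. At E9.5 the no-cell wells held 6413 counts, among them 0 of Lum, 0 of Dcn, 1 of Vcan, 1 of Hapln1, 1 of Gpc3, 3 of Gpc6 and 0 of Hspg2. At E11.5 they held 16873 counts, among them 7 of Lum, 3 of Dcn, 8 of Vcan, 0 of Hapln1, 11 of Gpc3, 13 of Gpc6 and 0 of Hspg2. The E11.5 counts were spread out, with at most 2 in a single well, and 21.3% of the no-cell wells had a count of Gpc3. Thus 5 of the 7 genes had more counts in wells without a cell on the E11.5 chip than on the E9.5 chip, while Hapln1 and Hspg2 had none on the later one.

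Set per well against the no-cell wells of the same chip, the genes that stood above them (interval of the ratio above 0) differed between gates. These were Hapln1 and Hspg2 in the E9.5 AGM and YS positive pools, Hspg2 alone in E11.5 AGM positive, and Gpc3 and Hspg2 in E11.5 YS positive. In the negative pools they were Vcan, Gpc3 and Gpc6 in E9.5 AGM, Lum, Dcn, Vcan, Gpc3 and Gpc6 in E9.5 YS, Dcn, Vcan, Gpc3 and Gpc6 in E11.5 AGM, and 6 of 7, all but Gpc6, in E11.5 YS. Where the no-cell wells had 0 counts, 3 counts over those wells stood in for them in the ratio alone. The interval, which decided what stood above, used the 0 itself. The other genes of each pool were not detectable above this background at the depth of these wells.

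**Figure D1:**
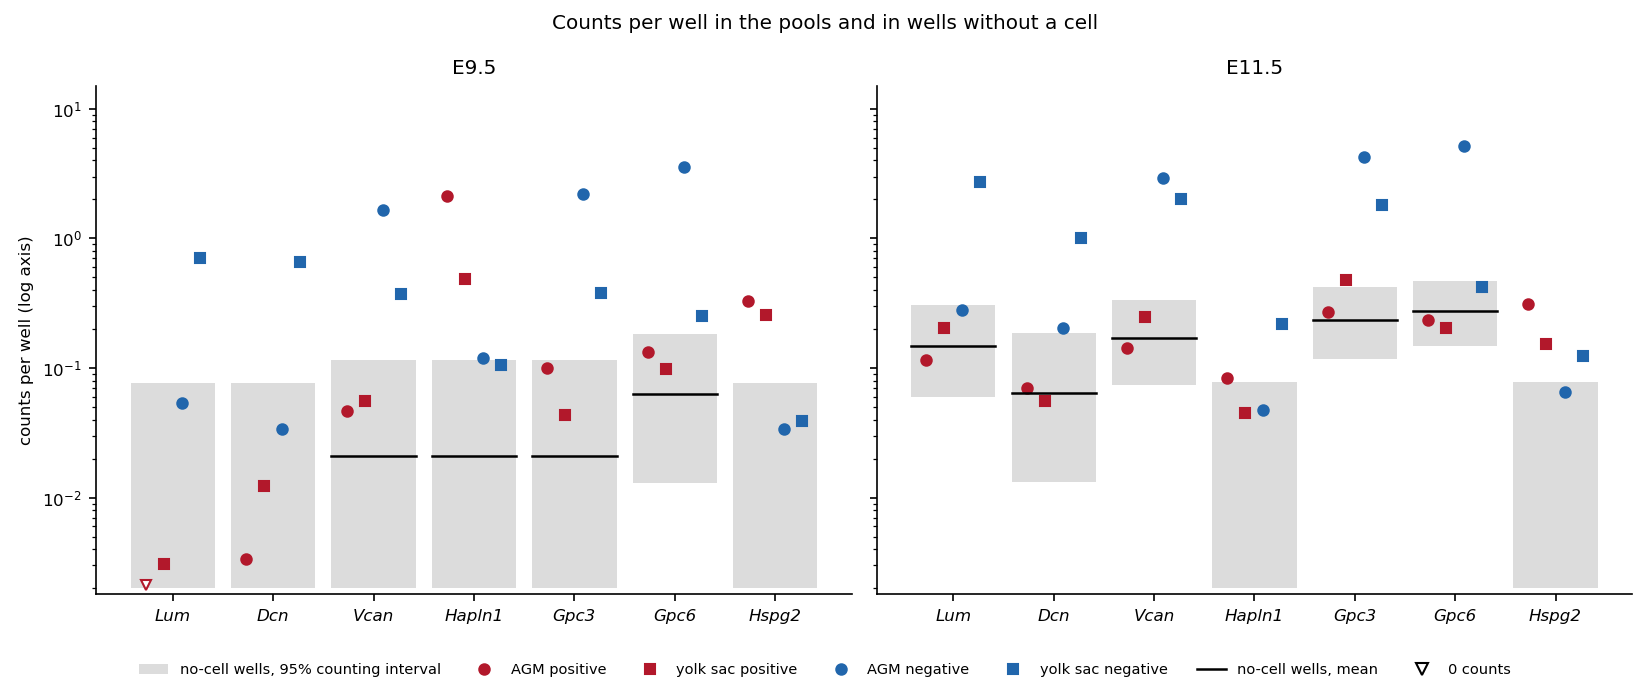
Counts per well (log axis) of each gene in the 4 pools of each chip, with the mean of the no-cell wells as a black line and its 95% counting interval in grey (drawn down to the axis limit where it reaches 0). At E11.5 the positive pools (red) lie inside the grey band for Lum, Dcn, Vcan and Gpc6 and outside it for Hspg2. Of the negative pools (blue) at E11.5, Lum, Hapln1 and Hspg2 in the AGM and Gpc6 in YS lie inside the band. The rest lie above it, Dcn in the AGM only just.

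Lum and Dcn, 2 small leucine-rich proteoglycan genes, were highest in the negative pool of the yolk sac at E11.5. At E9.5 Lum was at 0 CPM in AGM positive, 11.2 in AGM negative, 0.727 in YS positive and 56.5 in YS negative. The E11.5 values for Lum, in the same order, were 39.9, 87.5, 61.1 and 653 CPM. The 0 counts in E9.5 AGM positive have an interval up to 1.95 CPM, and 3 counts there would be 1.58 CPM. E11.5 YS negative was thus well above every other pool, with a log2 ratio of 2.90 (interval 2.60 to 3.22) to the next, E11.5 AGM negative. E11.5 YS positive did not differ from E9.5 YS negative beyond counting error (log2 ratio 0.11, interval -0.29 to 0.50). The level of Lum in E11.5 AGM negative, at 0.281 counts per well, was not above the 0.149 of the no-cell wells beyond counting error (log2 ratio 0.92, interval -0.18 to 2.27).

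Dcn followed the same order at its top and bottom. Its levels at E9.5 were 0.528, 7.10, 2.91 and 52.3 CPM in AGM positive, AGM negative, YS positive and YS negative. The E11.5 levels of Dcn were 24.2, 63.6, 16.7 and 239 CPM. E11.5 AGM negative and E9.5 YS negative did not differ beyond counting error (log2 ratio 0.28, interval -0.14 to 0.68). A single well gave 41 of the 201 Dcn counts of E9.5 YS negative, and the level without it was 41.9 CPM. Of wells thinned to 2000 counts, Lum had a count in 58.2% and Dcn in 34.9% in E11.5 YS negative, against 10.5% and 8.88% in E9.5 YS negative. Unthinned shares were 77.3% and 49.3% at E11.5 and 44.3% and 31.5% at E9.5.

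Versican RNA marked the negative gate, most of all in the AGM. Vcan was at 7.39 CPM in AGM positive, 346 in AGM negative, 13.1 in YS positive and 29.7 in YS negative at E9.5. At E11.5 the levels of Vcan were 49.5, 908, 74.5 and 480 CPM. Every negative pool was above the positive pool of its own tissue and stage, and E11.5 AGM negative was the highest, with a log2 ratio of 0.92 (interval 0.78 to 1.06) to E11.5 YS negative. A count of Vcan was found in 75.7% of thinned wells in E11.5 AGM negative, 53.3% in E11.5 YS negative and 42.7% in E9.5 AGM negative, but in 4.61% in E9.5 YS negative.

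Hapln1, whose protein links versican to hyaluronan, had another pattern and was highest in the positive gate at E9.5. Its levels at E9.5 were 333 CPM in AGM positive, 24.9 in AGM negative, 114 in YS positive and 8.33 in YS negative. At E11.5 they were 29.0, 14.7, 13.4 and 52.2 CPM. The E9.5 positive pools came first and second, and E11.5 YS negative next, with log2 ratios of 1.54 (interval 1.29 to 1.80) and 1.13 between neighbours in that order. The remaining 5 pools lay between 8.33 and 29.0 CPM, and no neighbours among them differed beyond counting error. Pools further apart in that order did, such as E9.5 AGM negative over E9.5 YS negative (log2 ratio 1.58, interval 0.88 to 2.29). A count of Hapln1 was found in 74.6% of wells in E9.5 AGM positive (39.9% after thinning) and in 36.6% in E9.5 YS positive (21.0%). The no-cell wells of that chip had it in 2.08%.

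Among the negative pools of each stage Gpc3 and Gpc6 were highest in the AGM. Another glypican gene, Gpc4, was lower there than in YS negative (10.7 against 22.1 CPM at E9.5, 14.7 against 27.7 at E11.5). Gpc3 was at 15.8, 465, 10.2 and 30.0 CPM at E9.5 in AGM positive, AGM negative, YS positive and YS negative. Its E11.5 levels were 94.2, 1320, 143 and 433 CPM. E9.5 AGM negative and E11.5 YS negative did not differ beyond counting error (log2 ratio 0.10, interval -0.05 to 0.25). In E9.5 AGM positive 14 of its 30 counts came from 1 well, and the level without that well was 8.48 CPM.

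Gpc6 was higher in the AGM negative pools than anywhere else. Its E9.5 levels were 21.1, 746, 23.3 and 20.1 CPM, and its E11.5 levels 80.9, 1615, 61.1 and 101 CPM. The other 6 pools together spanned 20.1 to 101 CPM. E11.5 YS negative, the highest of these, was not above the no-cell wells per well (log2 ratio 0.62, interval -0.20 to 1.56). In E9.5 YS positive 21 of 32 counts came from 1 well, and the level without it was 8.04 CPM. After thinning, Gpc6 had a count in 60.7% of wells in E9.5 AGM negative and 81.7% in E11.5 AGM negative, against 4.61% and 18.7% in the YS negative pools.

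Perlecan RNA was a feature of the positive gate. Hspg2 was at 51.7, 7.10, 61.0 and 3.13 CPM at E9.5 in AGM positive, AGM negative, YS positive and YS negative. At E11.5 it was at 109, 20.3, 46.0 and 29.6 CPM. E11.5 AGM positive was the highest pool. The next 3 places were taken by the other positive pools, in which E9.5 YS and E9.5 AGM (log2 ratio 0.24, interval -0.20 to 0.67) and E9.5 AGM and E11.5 YS (0.17, interval -0.32 to 0.67) did not differ beyond counting error. Hspg2 stood above the no-cell wells in all 4 positive pools and in E11.5 YS negative.

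**Figure D2:**
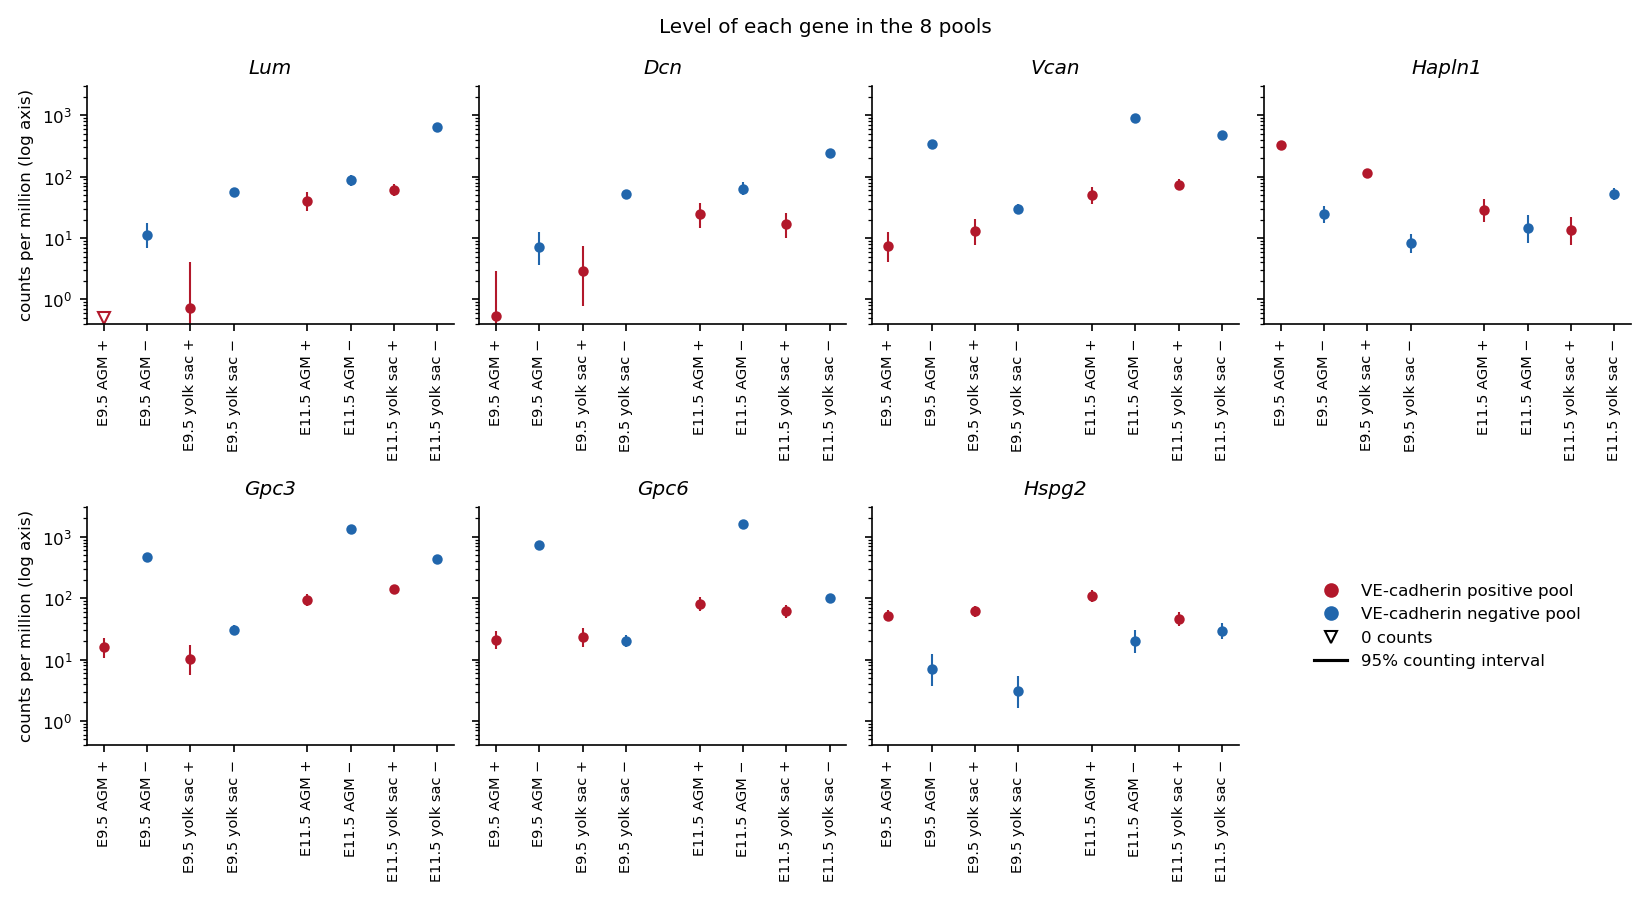
CPM (log axis) of each gene in the 8 pools with 95% counting intervals, positive gate in red and negative gate in blue; the open triangle marks 0 counts. Lum and Dcn peak in E11.5 YS negative (653 and 239 CPM), Vcan, Gpc3 and Gpc6 in E11.5 AGM negative (908, 1320 and 1615 CPM), Hapln1 in E9.5 AGM positive (333 CPM) and Hspg2 in E11.5 AGM positive (109 CPM).

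Comparison of the gates asked which genes belong to the endothelial sort and which to the cells around it. Vcan and Gpc3 were at least 2-fold lower in the positive gate in all 4 pairs of pools. Vcan was 46.8-fold lower in E9.5 AGM (log2 ratio -5.55, interval -6.43 to -4.79), 2.27-fold in E9.5 YS (-1.18, -1.99 to -0.46), 18.3-fold in E11.5 AGM (-4.20, -4.69 to -3.75) and 6.45-fold in E11.5 YS (-2.69, -3.02 to -2.37). For Gpc3 the log2 ratios were -4.88, -1.56, -3.81 and -1.60. For both genes and at both stages the AGM pair differed more than the yolk sac pair, and no interval of the AGM pairs overlapped that of the YS pair of its stage.

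These were 2 of the 5 members measured in every pair (at least 20 counts over its 2 pools), where 0.555% of 7026 genes were so called. No member, 0 of 5, was at least 2-fold higher in all 4 pairs, against 1.88% of all genes. That count became 1, Hspg2, when the positive pools were limited to wells with at least 3 endothelial markers (log2 ratios 2.89, 4.33, 2.75 and 1.33). Lum and Dcn had under 20 counts in the E9.5 AGM pair and were at least 2-fold lower in the other 3 pairs, with log2 ratios of -6.28, -1.13 and -3.42 for Lum and -4.17, -1.40 and -3.84 for Dcn. With TMM scaling the E11.5 AGM ratios were under 2-fold, at -0.53 for Lum and -0.79 for Dcn, and Lum stood above the no-cell wells in neither of these AGM pools. In the E9.5 AGM pair Lum had 0 counts against 19, 7.10-fold lower with 3 counts in place of 0 (log2 ratio -2.83, upper limit -2.39). Gpc6 was lower in the AGM (-5.14 at E9.5, -4.32 at E11.5), while in the yolk sac its log2 ratios were 0.21 (interval -0.43 to 0.83) and -0.73 (-1.15 to -0.32). The first of these was -0.62 with TMM scaling and -1.17 with the highest well of each pool left out, an alternative chosen after seeing the data. The second compares E11.5 YS pools of which neither stood above the no-cell wells for Gpc6. A lower level in a summed pool can come from fewer cells of a type or from less RNA per cell, and these cannot be told apart.

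Hspg2 and Hapln1 were the genes with higher levels in the positive gate. Hspg2 was 7.28-fold higher in E9.5 AGM (log2 ratio 2.86, interval 2.00 to 3.87), 19.5-fold in E9.5 YS (4.29, 3.41 to 5.30), 5.36-fold in E11.5 AGM (2.42, 1.74 to 3.17) and 1.56-fold in E11.5 YS (0.64, 0.05 to 1.23). It was thus above in 4 of 4 pairs and past 2-fold in 3. Hapln1 was 13.4-fold higher in E9.5 AGM (3.74, interval 3.29 to 4.23) and 13.7-fold higher in E9.5 YS (3.78, 3.22 to 4.37). At E11.5 its log2 ratio was 0.98 in the AGM (interval 0.00 to 1.99), and in the yolk sac it was 3.90-fold lower (-1.96, -2.84 to -1.18). The median log2 ratio of all genes was -0.39, 0.82, -0.77 and -0.13 in the 4 pairs, so the reversal of Hapln1 in the yolk sac was larger than that shift.

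**Figure D3:**
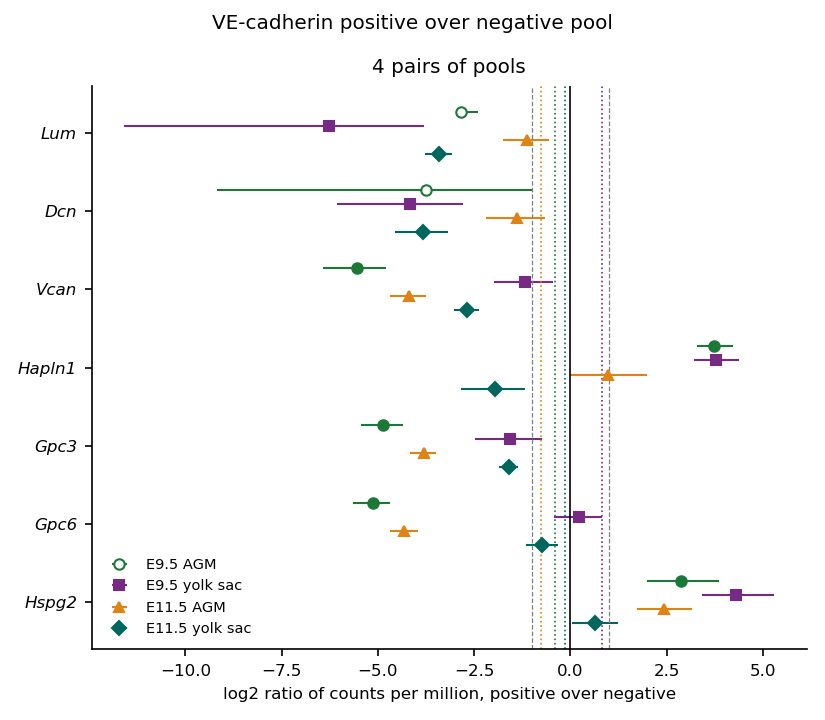
Log2 ratio of CPM, positive over negative pool, for each gene in the 4 pairs with 95% counting intervals; open symbols have under 20 counts over the pair, an interval with no bound on one side is cut at the symbol, dashed lines mark 2-fold and dotted lines the median of all genes in each pair. Vcan and Gpc3 lie left of the 2-fold line in all 4 pairs, Hspg2 lies right of 0 in all 4, and Hapln1 lies at 3.74 and 3.78 at E9.5 but at -1.96 in E11.5 YS.

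Wells with counts of at least 3 endothelial markers were set against the other wells of the same positive pool, where both groups share the chip. At E11.5 Hspg2 was at 136 CPM (interval 103 to 176) in such wells of AGM positive and 80.7 (55.6 to 113) in the others. In E11.5 YS positive it was at 74.3 CPM (52.3 to 102) against 25.8 (15.3 to 40.8), a difference with no overlap of the intervals. Hapln1 in E11.5 AGM positive was at 42.9 CPM (25.5 to 67.9) against 14.7 (5.39 to 31.9). Gpc3 ran the other way in that pool, at 71.6 CPM (48.3 to 102) against 117 (86.6 to 156), with intervals that overlap. Lum in E11.5 YS positive was at 36.1 CPM (21.4 to 57.1) against 78.9 (59.5 to 103). The intervals of Hspg2 and of Hapln1 in AGM positive also overlap. Over the whole pool, Lum in E11.5 YS positive and Gpc3 and Hapln1 in E11.5 AGM positive did not stand above the no-cell wells. Detection of markers depends on the depth of a well, and the part of depth in these differences was not tested. The class is a range of wells and no cell type, and 71 and 75 wells of the AGM and YS pools had 2 of the markers.

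Comparison of tissues within the negative gate found 4 of the 7 members past 2-fold the same way at both stages. At both stages AGM cells had less Lum and Dcn RNA than yolk sac cells and more Gpc3 and Gpc6 RNA. Lum was 5.03-fold lower at E9.5 (log2 ratio -2.33, interval -3.09 to -1.65) and 7.46-fold lower at E11.5 (-2.90, -3.22 to -2.60). Dcn was 7.37-fold and 3.76-fold lower (-2.88 and -1.91). Gpc6 was 37.2-fold higher at E9.5 (5.22, 4.88 to 5.57) and 15.9-fold higher at E11.5 (3.99, 3.76 to 4.24), and Gpc3 15.5-fold and 3.05-fold higher (3.96 and 1.61).

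The lower genes were 2 of 7 members, against 2.04% of 8520 genes, and the higher genes 2 of 7, against 31.5%, a share near that of all genes. The median of all genes was itself higher in the AGM, by 1.17 at E9.5 and 0.85 at E11.5. Haemoglobin took a median of 38.1% and 31.5% of counts per well in the YS negative pools and 4.54% and 3.45% in the AGM negative pools. Markers of other cell types moved too: 9 of 9 measured of visceral endoderm were lower in the AGM, 3 of 3 neural and 3 of 3 somite and muscle markers were higher, and of 10 mesenchymal markers 3 were lower (Col1a1, Col1a2, Postn) and 3 higher (Pdgfra, Twist1, Prrx1). Their part in the result was not tested. Of all genes called in either direction 93.9% were higher in the AGM, and with TMM scaling 55.7%, when 7.16% of genes were called higher. With that scaling Gpc6 kept ratios of 4.08 and 3.15, Gpc3 had 2.82 and 0.76, and Vcan 2.41 and 0.07, while Lum and Dcn were lower still. Vcan had log2 ratios of 3.54 and 0.92 with the plain totals, both above 0. At E9.5 Hapln1 was 2.98-fold higher in AGM cells (1.58, interval 0.88 to 2.29) but 3.54-fold lower in them at E11.5 (-1.82, -2.70 to -1.04). With TMM scaling these ratios were 0.44 and -2.67, so the E9.5 difference was about the shift of all genes, and neither E9.5 negative pool stood above the no-cell wells for Hapln1.

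In the positive gate 1 member was past 2-fold by tissue at both stages, at E11.5 on few counts. Hapln1 was 2.91-fold higher in AGM than in yolk sac at E9.5 (log2 ratio 1.54, interval 1.29 to 1.80) and 2.16-fold at E11.5 (1.11, 0.14 to 2.12). It was 1 of 5 members measured, against 1.03% of 6861 genes, and no member, 0 of 5, was lower in both, against 1.21%. The E11.5 value rests on 24 and 16 counts and was under 2-fold with TMM scaling (0.85). Neither E11.5 positive pool stood above the no-cell wells for Hapln1. The call was also lost with no filter on wells, with a stricter filter, and without haemoglobin and mitochondrial genes in the totals. Hspg2 differed at E11.5 (1.24, interval 0.74 to 1.75) but not beyond counting error at E9.5 (-0.24, -0.67 to 0.20).

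Between the stages, 6 of the 7 members were at least 2-fold higher at E11.5 in the negative pools of both tissues, all but Hapln1, where 10.6% of 8562 genes were. In AGM negative the log2 ratios were 2.96 for Lum (interval 2.24 to 3.75), 3.16 for Dcn (2.27 to 4.18), 1.39 for Vcan, 1.51 for Gpc3, 1.11 for Gpc6 and 1.51 for Hspg2 (0.44 to 2.66). In YS negative they were 3.53, 2.19, 4.02, 3.85, 2.34 and 3.24 in the same order. Vcan and Gpc3 were thus 16.2-fold and 14.5-fold higher in the yolk sac, where they had been low at E9.5, and 2.62-fold and 2.84-fold higher in the AGM. Some of these ratios hold a level not above the no-cell wells of its chip. Lum and Hspg2 stood above those wells in neither AGM negative pool. The same held for Dcn in E9.5 AGM negative, Hspg2 in E9.5 YS negative and Gpc6 in E11.5 YS negative. Hapln1 was 6.27-fold higher in YS negative (2.65, interval 2.04 to 3.28) and not beyond counting error different in AGM negative (-0.75, -1.68 to 0.11). No member, 0 of 7, was lower in both, against 5.09% of genes. The median of all genes was 0.09 in the AGM and 0.38 in the yolk sac. The share of higher genes among all called was 67.6%, and 54.3% with TMM scaling. Mesenchymal markers moved with them: 8 of 8 measured were called higher, and wells with at least 3 of them made up 27.4% and 70.4% of AGM negative and 73.1% and 98.7% of YS negative at E9.5 and E11.5. Their part in the result was not tested.

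**Figure D4:**
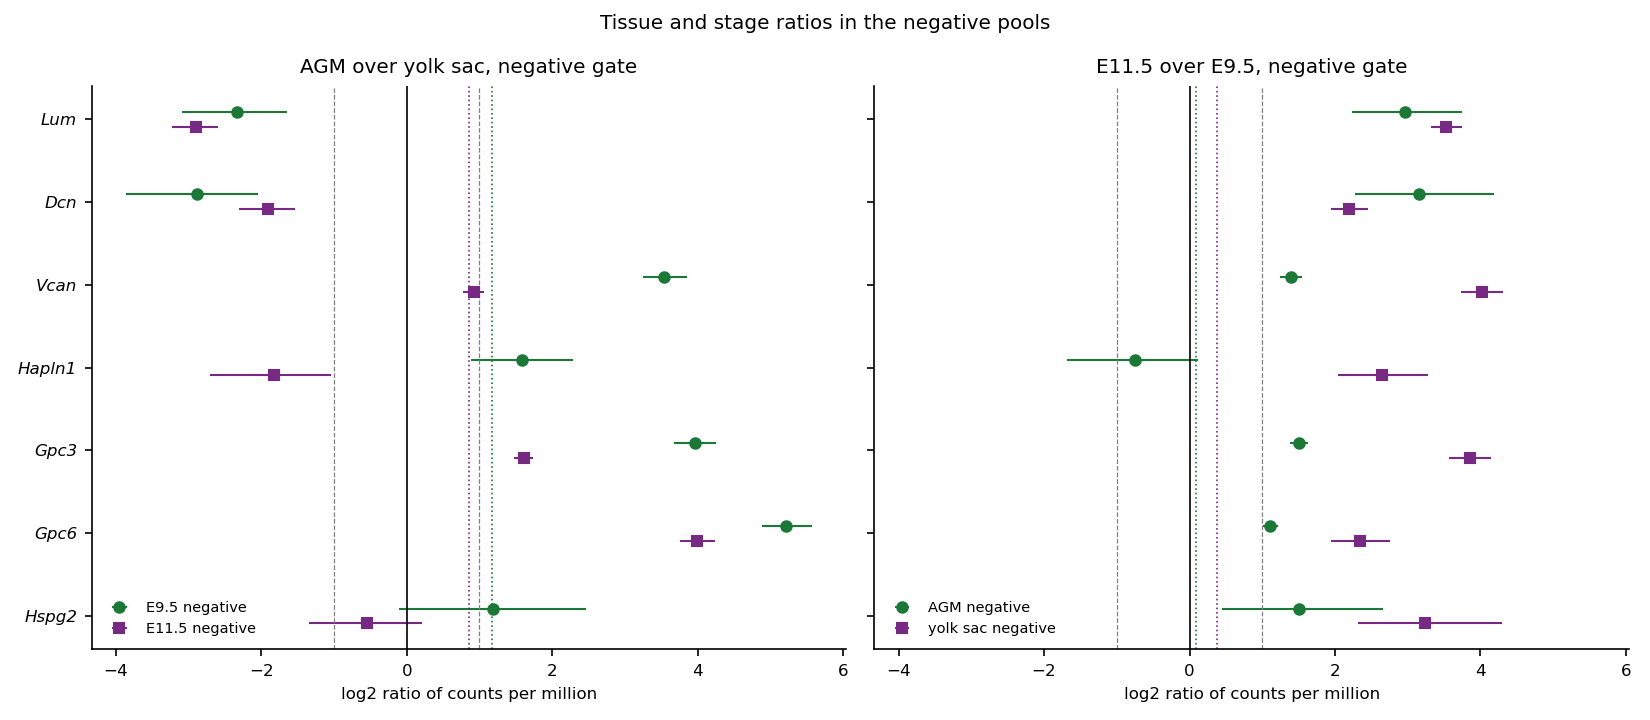
Log2 ratios of CPM in the negative gate, AGM over yolk sac at each stage (left) and E11.5 over E9.5 in each tissue (right), with 95% counting intervals; dashed lines mark 2-fold and dotted lines the median of all genes in each pair. On the left Lum and Dcn lie below 0 and Gpc3 and Gpc6 above 0 at both stages, with Hapln1 on either side; on the right all genes but Hapln1 lie above 2-fold in both tissues.

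In the positive gate 5 of 7 members, Lum, Dcn, Vcan, Gpc3 and Gpc6, had levels at least 2-fold higher at E11.5 in both tissues, against 2.65% of 7875 genes. Their log2 ratios were 4.65, 5.52, 2.74, 2.57 and 1.94 in the AGM and 6.39, 2.53, 2.51, 3.81 and 1.39 in the yolk sac. The first has 3 counts in place of the 0 of Lum at E9.5, and its interval starts at 4.27. Without the highest well of each pool the Gpc6 ratio in the yolk sac was 2.85. The same 5 genes are those with more counts in the no-cell wells of the E11.5 chip. Per well, E11.5 AGM positive had 0.115 counts of Lum against 0.149 in no-cell wells, 0.0697 of Dcn against 0.0638, 0.143 of Vcan against 0.170, 0.272 of Gpc3 against 0.234 and 0.233 of Gpc6 against 0.277. E11.5 YS positive had 0.204, 0.0560, 0.249, 0.479 and 0.204 counts per well, and Gpc3 alone among the 5 was above the no-cell wells beyond counting error (log2 ratio 1.03, interval 0.16 to 2.06). With the no-cell counts of each chip subtracted, an alternative chosen after seeing the data, 0 of the 7 members were higher in both tissues. Mesenchymal markers gave 1.10 and 2.54 counts per well in the E11.5 AGM and YS positive pools, 0.979 in the no-cell wells of that chip, and 0.391 and 0.394 in the E9.5 positive pools.

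Hapln1 went the other way and was lower at E11.5 in both positive pools, in the AGM (log2 ratio -3.52, interval -4.17 to -2.93) and in the yolk sac (-3.09, -3.93 to -2.35). It was 1 of 7 members, against 16.1% of all genes, whose median was -0.30 in the AGM and -0.67 in the yolk sac. Of all genes called in this comparison 14.2% were higher at E11.5, and 28.2% with TMM scaling. Within wells with at least 3 endothelial markers Hapln1 was at 339 and 118 CPM in the E9.5 AGM and YS positive pools and at 42.9 and 8.03 CPM in those at E11.5. Hspg2 was 2.10-fold higher at E11.5 in AGM positive (1.07, interval above 0) and did not differ beyond counting error in YS positive (-0.41, -0.93 to 0.10).

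The wider pathway was read from 83 other gene names for proteoglycan cores, hyaluronan turnover, chain synthesis and versican-cutting proteases. Of these names, which list Cemip2 and Tmem2 apart, 74 were in both tables. Between gates 30 could be measured, of which 1 was higher in the positive gate and 2 were lower, beside 1.88% and 0.555% of all genes. The higher gene was Csgalnact1, which starts chondroitin sulphate chains (log2 ratios 3.92, 5.64, 2.04 and 2.08 in E9.5 AGM, E9.5 YS, E11.5 AGM and E11.5 YS). The lower genes were Sdc2, a syndecan of the cell surface (-3.07, -2.22, -2.24 and -2.67), and Hs6st2, a heparan sulphate 6-O-sulphotransferase (-3.50, -1.27, -2.98 and -2.21, the second with an interval of -3.25 to 0.25). With TMM scaling 3 were higher (Tmem2, Stab2 and Csgalnact1) and 3 lower (Sdc1, Sdc2 and Hs6st2), beside 2.32% and 0.683% of all genes. Col18a1, the basement membrane collagen that carries heparan sulphate, was at 257 and 277 CPM in the E9.5 AGM and YS positive pools against 79.3 and 28.1 in the negative pools. At E11.5 it was at 326 CPM in AGM positive against 62.6 in AGM negative, but at 115 in YS positive against 119 in YS negative, and it was not called.

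Within the negative gate 17 of 43 measured pathway genes were higher in the AGM at both stages and 0 lower, a share of 39.5% beside the 31.5% of all genes. With TMM scaling 5 were higher, 11.6% beside 7.16% of all genes (Has2, Tmem2, Sulf1, Sulf2 and Adamts20) and 3 lower (Bgn, Gpc4 and B3gat3). Among those higher with the plain totals were the hyaluronan synthase genes Has1 and Has2. Has2 was at 45.6 CPM in AGM negative and 2.34 in YS negative at E9.5, and E11.5 levels were 53.4 and 12.0 CPM. The heparan sulphate 6-O-endosulphatase gene Sulf1 stood at 40.8 and 8.59 CPM in those pools at E9.5, with 301 and 8.81 CPM on the later chip. Other higher genes were the glypican gene Gpc5, the core protein genes Spock1 and Agrn, and the chain enzyme genes Ext1, Glce and Hs2st1. At E11.5 several were near the all-gene shift of 0.85, with log2 ratios of 1.01 for Has1, 1.03 for Ext1, 1.05 for Glce and 1.19 for Spock1 (interval -0.12 to 2.58).

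In the positive gate 3 of 29 measured pathway genes had lower levels in AGM than yolk sac at both stages and 0 higher, beside 1.21% and 1.03% of all genes. They included the hyaluronan receptor genes Lyve1 and Stab2. Lyve1 was at 25.9 CPM in AGM positive against 956 in YS positive at E9.5, and at 96.6 against 334 at E11.5. For Stab2 the levels were 16.4 against 944 CPM and, at the later stage, 78.5 against 789. The other was Adamts5, a protease gene (2.11 against 45.8 and 6.04 against 50.2 CPM). With TMM scaling 4 were lower (Tmem2, Lyve1, Stab2 and Adamts5) and 0 higher, beside 1.49% and 1.01% of all genes.

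Across stages in the negative gate 9 of 39 measured pathway genes were higher at E11.5 in both tissues and 0 lower, beside 10.6% and 5.09% of all genes. With Lum and Dcn, the other small leucine-rich proteoglycan genes measured, Bgn and Ogn, were among them, so that 4 of 4 of that list were higher. Bgn was at 8.88 and 48.8 CPM in AGM negative and at 10.7 and 120 in YS negative. Ogn was at 29.5 CPM in E11.5 AGM negative and 10.1 in E11.5 YS negative, so its tissue order was not that of Lum and Dcn. With TMM scaling 7 of the 39 were higher, Bgn and Ogn among them, and 1 was lower (Lyve1), beside 8.37% and 7.04% of all genes. In the positive gate 1 of 27 was higher (Xylt1, a chain-starting xylosyltransferase gene) and 1 lower (Chsy1, a chondroitin synthase gene), beside 2.65% and 16.1% of all genes. With TMM scaling 2 were higher there (Cd44 and Xylt1) and 1 lower (Chsy1), beside 3.94% and 10.0% of all genes.

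For a search by pattern, mitochondrial and ribosomal protein genes and those with Gm, AC, Rik, Mir or ENSMUSG names were left out. Among the other 5966 genes with at least 200 counts over the pools, those most similar to each member were sought. The measure was Pearson's r of log2(CPM + 10) over the 8 pools. This is a description, as pools of a chip share its library, depth and the background seen in its no-cell wells. Lum was nearest to the fibrillar collagen genes Col1a1 (r = 0.99) and Col1a2 (0.98), and Dcn to the matrix gene Postn (0.98) and to Lum (0.97). Vcan was nearest to Ncam1, Pdgfra and Fras1 (each 0.99), and Gpc3 to Vcan, Pdgfra and Cdh11 (each 0.98). Gpc6 was nearest to Ldhb (0.99), Lrig1 and Epha7 (each 0.98). Hspg2 was nearest to Sat1 and Irf2 (each 0.99), and Hapln1 to Tubb6 (0.90), the least close of these first matches. Between members r was 0.98 for Vcan and Gpc3, 0.91 for Gpc3 and Gpc6, 0.88 for Vcan and Gpc6, and -0.50 for Vcan and Hapln1, which are neighbours in the genome.

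Single wells were also asked whether members occur together. In E11.5 YS negative thinned to 2000 counts, 39.2% of 212 wells with Lum had a count of Dcn (interval 32.5% to 46.1%), against 28.9% (21.9% to 36.8%) of wells without Lum. Lum was found in 79.4% (62.1% to 91.3%) of 34 wells with Hapln1 and in 56.1% (50.5% to 61.5%) of the others. In E11.5 AGM negative, 86.3% of 190 wells with Vcan had Gpc3 (80.6% to 90.9%), against 77.0% (64.5% to 86.8%) of wells without it. The intervals overlap except for Lum in wells with and without Hapln1, the single case among 150 combinations. Many pairs of genes are among these in both directions. Taken the other way, Hapln1 was found in 12.7% (8.56% to 18.0%) of wells with Lum and 4.61% (1.87% to 9.26%) of the others, and these intervals overlap. Within E9.5 AGM negative, Gpc6 was at 1144 CPM (1058 to 1236) in the 97 wells with at least 3 mesenchymal markers and at 543 (501 to 588) in the other 257, and Vcan at 485 (430 to 546) and 275 (245 to 308).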

How the data were processed

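Single cells of the E9.5 and E11.5 chips had been sequenced together, per the series' design text. The authors deposited 1 table of raw counts per chip, genes by wells, in whole numbers. Per the submitters' processing notes the tools were FastQC, cutadapt and STAR with mm10 (GRCm38); versions, the counting tool, strand and whether identifiers marked single molecules are not given in the sources used here, so counts may include PCR copies. The deposited State column gave the pools and control wells.

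From these, counts were summed over wells with at least 500 genes and divided by the pool total over the 18323 shared gene rows (CPM). Levels have exact Poisson intervals, shares exact Clopper-Pearson intervals and ratios exact conditional binomial intervals (95%). A pool with 0 counts was set to 3 in ratios, but not in levels or intervals. A gene was called when all pairs of a comparison differed at least 2-fold in 1 direction, with at least 20 counts over each pair. Ratios and their intervals, pair by pair, were tested on simulated Poisson counts with 200 genes set apart. The calling rule itself was not tested. The 7 genes are always named, with pathway genes that were called or among the 3 highest of their list (not all are printed), and the 3 genes of most similar pattern; other pathway examples follow that rule. Genes and lists were chosen with earlier results of these data known. Wells were thinned to 2000 counts for shares. No test across samples fits 1 sample per pool. Wells are not replicates. Alternatives are in the closing section. Software was Python 3.11.15, numpy 2.4.6, pandas 2.3.3, scipy 1.17.1 and, for TMM scaling alone, edgeR 4.0.16.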

Additional observations from a re-analysis of the deposited data

Results flagged for a closer look

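Hapln1 changed sides between stages in the yolk sac. Its log2 ratio of positive over negative pool was 3.74 in E9.5 AGM and 3.78 in E9.5 YS but -1.96 in E11.5 YS, while in E11.5 AGM it was 0.98 (interval 0.00 to 1.99). AGM over yolk sac in the negative gate was 1.58 on the E9.5 chip but -1.82 on the other; the first is near the median of all genes (1.17) and was 0.44 with TMM scaling. E11.5 over E9.5 was 2.65 in YS negative and -3.09 in YS positive. Apart from the 0.98 of E11.5 AGM, each value has a counting interval on 1 side of 0. The differences between the values were not tested. Hapln1 stood above the no-cell wells only in the E9.5 positive pools and in E11.5 YS negative.

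Wells without a cell on the E11.5 chip held more than 3 counts of 4 members: 7 of Lum, 8 of Vcan, 11 of Gpc3 and 13 of Gpc6. Among wells that received stem cell RNA at E9.5, Gpc3 had 16 counts in 46 wells, above the no-cell wells (log2 ratio per well 4.06, interval 1.38 to 9.45).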

How the results depend on the processing

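No paired analysis was possible because each pool is 1 sample and no test was made. Of the 10 counts of members called (5 comparisons, both directions), 3 kept a value within 1.5 times the main count in all alternatives: the 2 lower in AGM than YS in the negative gate, the 1 lower at E11.5 in the positive gate and the 0 lower at E11.5 in the negative gate. The 2 members lower in the positive gate became 0 at 3-fold and 4 without the E9.5 AGM pair, which adds Lum and Dcn. The 0 members higher in the positive gate became 1 (Hspg2) under a stricter well filter, in wells with at least 3 endothelial markers, at 1.5-fold and without the E11.5 YS pair. The 0 members lower in AGM than YS in the positive gate became 1 at 1.5-fold. The 6 higher at E11.5 in the negative gate became 2 at 3-fold. The 5 higher at E11.5 in the positive gate became 3 under the stricter well filter (1000 genes, 10% mitochondrial counts), 3 in wells with at least 3 endothelial markers, and 0 with no-cell counts subtracted. The 2 higher in AGM than YS in the negative gate became 1 with TMM scaling (Gpc6) and 5 without the E11.5 pair. The 1 higher in AGM than YS in the positive gate became 0 with no filter on wells, with the strict filter, without haemoglobin and mitochondrial genes in the totals, with TMM scaling and at 3-fold, and 2 without the E9.5 pair. The cause of these changes was not tested, except where fewer pairs or another fold set them.

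Of single log2 ratios none past 2-fold changed sign under the other filters, weights and scalings tried. With no-cell counts subtracted, chosen after seeing the data, 4 did, all E11.5 over E9.5 in the positive gate: Vcan in the AGM (-0.02), Gpc6 in the AGM (-1.47) and YS (-1.64), and Dcn in the YS (-0.09). In each of these the E11.5 pool had 0 counts left, so 3 counts stand in for 0 and the value is not a measured ratio. Leaving out the highest well of each pool, also chosen later, moved 6 of 83 ratios outside their interval. No ratio past 2-fold changed sign, but Gpc6 in the E9.5 YS gate pair went from 0.21 to -1.17 and in the E9.5 positive pools, AGM over YS, from -0.14 to 1.03, and Gpc3 in the latter from 0.64 to -0.16. Depth limits values under about 4 CPM, the level of 3 counts in the shallowest pool (3.62 CPM).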
